A study of Mus musculus with 57 samples.

Results

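The translation initiation and elongation factors comprise the genes whose mouse symbols begin with Eif1 to Eif6, Eef1 or Eef2. Of 79 such symbols in the expression table, 65 were kept as members, since 10 are pseudogenes, 1 is the Y-linked copy Eif2s3y and 3 had a mean value under 10. The 3 low genes were Eif4e1b, with a mean of 0.0359, Eef1akmt3, with 3.44, and the noncoding Eif2c5, with 0.0334. The members just above the minimum were Eif4ebp3, with 14.5, and Eef1akmt4, with 20.4. The same minimum mean of 10 chose the 16659 of 51456 genes that were tested, so all 65 members are among them by definition.

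The mice were C57BL/6N and 25 days old, and were heterozygous (HT) or wild type (WT) for Shank2, a gene of a postsynaptic scaffold protein. From postnatal day 3 to 24 the pups took up lithium, a mood stabilizer, fluoxetine, a serotonin reuptake inhibitor, or vehicle with their mother's milk, and the prefrontal cortex was dissected for RNA-seq of 57 libraries. The 6 arms were HT lithium (n = 10), HT fluoxetine (n = 10), HT vehicle (n = 10), WT lithium (n = 9), WT fluoxetine (n = 10) and WT vehicle (n = 8), each with females and males. The labels name neither the Shank2 allele, the doses nor the litters, so the p-values reflect no more than the spread among libraries, which may share a mother. In tissue RNA, fewer cells of a type and less RNA per cell cannot be told apart.

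Initiation begins when eIF2 brings the initiator tRNA to the small ribosomal subunit, where eIF1, eIF1A and the many-subunit eIF3 hold the complex open for scanning. The cap-binding eIF4E, the scaffold eIF4G and the helicase eIF4A with its cofactors eIF4B and eIF4H recruit the mRNA, and eIF5, eIF5B and eIF6 act on subunit joining and availability. During elongation eEF1A delivers aminoacyl-tRNAs, the eEF1B subunits reload it with GTP, eIF5A helps at stalling sequences, and eEF2 moves the ribosome along unless it is phosphorylated by its calcium-dependent kinase, eEF2K. In neurons this control is known for its part in local protein synthesis near synapses, and phosphorylation of eIF2 alpha by its kinases lowers initiation under stress through eIF2B.

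Promoters of translation factor genes are known for the E-box CACGTG, a palindrome bound by Myc and related factors. Of 51 members with a RefSeq promoter entry (GRCm38.p6, 250 bases before to 50 after a start), 13 held CACGTG, which is 25.5%. Of 16522 protein-coding genes, 1516 held it, which is 9.18%. The 16522 were not filtered by level, whereas the members had a mean of at least 10. A gene was counted if the window of any of its listed starts held the motif, and the number of starts was not matched. The 13 were Eif1b, Eif3a, Eif3f, Eif3k, Eif4a1, Eif4e, Eif4g1, Eif4h, Eif5a, Eif5a2, Eef2, Eef2k and Eef1akmt4. The cAMP response element TGACGTCA, also a palindrome, was found in 1 of the 51 (1.96%) and in 436 of the 16522 (2.64%). The windows of 4 of these 13, each also called in a drug comparison below, are shown from 5′ to 3′ on the strand of the gene, with each CACGTG in capitals. They are, in order, chr5:134639390-134639529 (minus strand), chr3:28781117-28781296 (plus strand), chr3:138527028-138527287 (plus strand) and chr7:120842711-120842850 (plus strand).
Eif4h: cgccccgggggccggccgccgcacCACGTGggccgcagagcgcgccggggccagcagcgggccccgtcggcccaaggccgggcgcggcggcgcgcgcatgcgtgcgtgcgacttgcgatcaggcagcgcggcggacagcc
Eif5a2: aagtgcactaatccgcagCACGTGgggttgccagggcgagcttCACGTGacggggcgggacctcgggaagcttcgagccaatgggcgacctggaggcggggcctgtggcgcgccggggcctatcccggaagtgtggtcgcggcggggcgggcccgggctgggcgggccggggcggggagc
Eif4e: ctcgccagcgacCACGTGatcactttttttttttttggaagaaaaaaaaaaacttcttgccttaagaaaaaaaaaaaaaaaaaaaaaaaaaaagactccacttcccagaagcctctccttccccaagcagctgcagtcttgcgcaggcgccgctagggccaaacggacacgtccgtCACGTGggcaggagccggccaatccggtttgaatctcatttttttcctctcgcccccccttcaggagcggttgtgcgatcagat
Eef2k: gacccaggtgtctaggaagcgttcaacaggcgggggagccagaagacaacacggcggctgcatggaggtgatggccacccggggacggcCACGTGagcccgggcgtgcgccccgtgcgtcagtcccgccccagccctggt
Eif5a2 and Eif4e held 2 copies each and Eif4h and Eef2k 1 each. Eif4e has 2 listed starts and Eef2k 3, and the motif lay in the window of 1 of them in each gene. The 4 were chosen among members with the motif, so they do not show how often called members hold it. Eif1, Eif4g3, Eif4b, Eif4e2 and Eef1a1, also called in drug comparisons, held none. A match describes the letters of the window and not binding, which was not measured here.

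Shank2 ran from 3877 to 5006 in HT and from 6762 to 11791 in WT libraries, so no HT library reached a WT library. Totals of normalized values were 30.4 to 33.2 M per library. The cortical markers were present, with Fezf2, the lowest of 8 excitatory neuron markers, at a mean of 826. All 6 olfactory bulb markers and 9 of 10 striatal markers also reached a mean of 10, and their summed values differed many-fold between libraries, the striatal sum from 4882 to 16116 in HT and from 4413 to 25784 in WT. With both sums as terms of the fit, lithium against vehicle over both genotypes gave 18 called members in place of 17. The 3 libraries least like the others were WT vehicle male 2, HT fluoxetine male 3 and WT vehicle female 1, and without them lithium gave 14 and fluoxetine 7 called members against vehicle over both genotypes, and lithium 12 against fluoxetine. These are counts of members alone, so they do not tell a change of the members from one of all genes.

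The members differed widely in level. Per kilobase of the longest annotated coding transcript, Eef1a1, the main gene of eEF1A, had a mean level of 30547 normalized counts per kb. Its neuronal counterpart Eef1a2 had 13239 and Eef2 had 10877 per kb. Below them came the helicase gene Eif4a2 with 5958, Eif5a with 5157 and Eif1 with 4902 per kb. The lowest per-kb levels were those of the methyltransferase gene Eef1akmt4 (14.0), of Eif4ebp3 (19.5), of Eef2kmt (36.1) and of Eif4ebp1 (42.3), whose product sequesters eIF4E. Across the 57 libraries the coefficient of variation was smallest for Eif5, at 4.27%, and largest for Eif4ebp3, at 65.5%. Exons of Eif4ebp3 overlap those of AC115631.1, listed at a mean of 265.7, by 501 bases on the same strand. Of its 31-base stretches 66.4% occur in that gene, so the level and spread of Eif4ebp3 are uncertain. Values below are normalized counts per gene, without division by length, and differences are on the log2(value + 1) scale.

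Lithium against vehicle, over both genotypes, gave the most called members. At an adjusted p under 0.05 (limma, adjusted over all genes tested), 17 of 65 members changed, with 13.3% of all genes called. Of these, 3 rose (7.16% of all genes rose) and 14 fell (6.14% of all genes fell). The median log2 difference of the 65 members was -0.04, against -0.00 over all genes tested, and 47 members had a negative value. By role, 6 of 14 eIF3 subunits and 3 of 6 members of the eEF1 group, taken by symbol, fell. So did 3 of 11 eIF4 factors, 1 of 5 members of the eIF1 group and 1 of 5 of the eIF5 and eIF6 group. The risers were 2 eIF4 factors and 1 member of the eIF5 and eIF6 group.

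These counts moved with a property of the libraries. In each library the deviations of all other genes were correlated with transcript length, and this length trend averaged 0.0746 in HT lithium, 0.0243 in HT fluoxetine, -0.0497 in HT vehicle, 0.0486 in WT lithium, 0.0252 in WT fluoxetine and -0.0835 in WT vehicle, with -0.33 in WT vehicle male 2. A gene's transcripts had a median length of 862 bases among the members and of 1560 bases among all genes tested. Taken from the longest transcript of each gene, the lengths lay closer together, at 2726 and 3277 bases. Once this trend entered the fit as a covariate (the length term), 1 member of 65 remained called under lithium, Eif4h, and 144 genes in all instead of 2216. The trend came from other genes of these same libraries, and its arm means were positive under both drugs and negative under vehicle. Drug effect and trend therefore cannot be told apart by this fit, and a call may be lost through a larger standard error. The trend taken from the longest transcript of each gene also left Eif4h alone. Without WT vehicle male 2, 10 members were called.

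**Figure D1:**
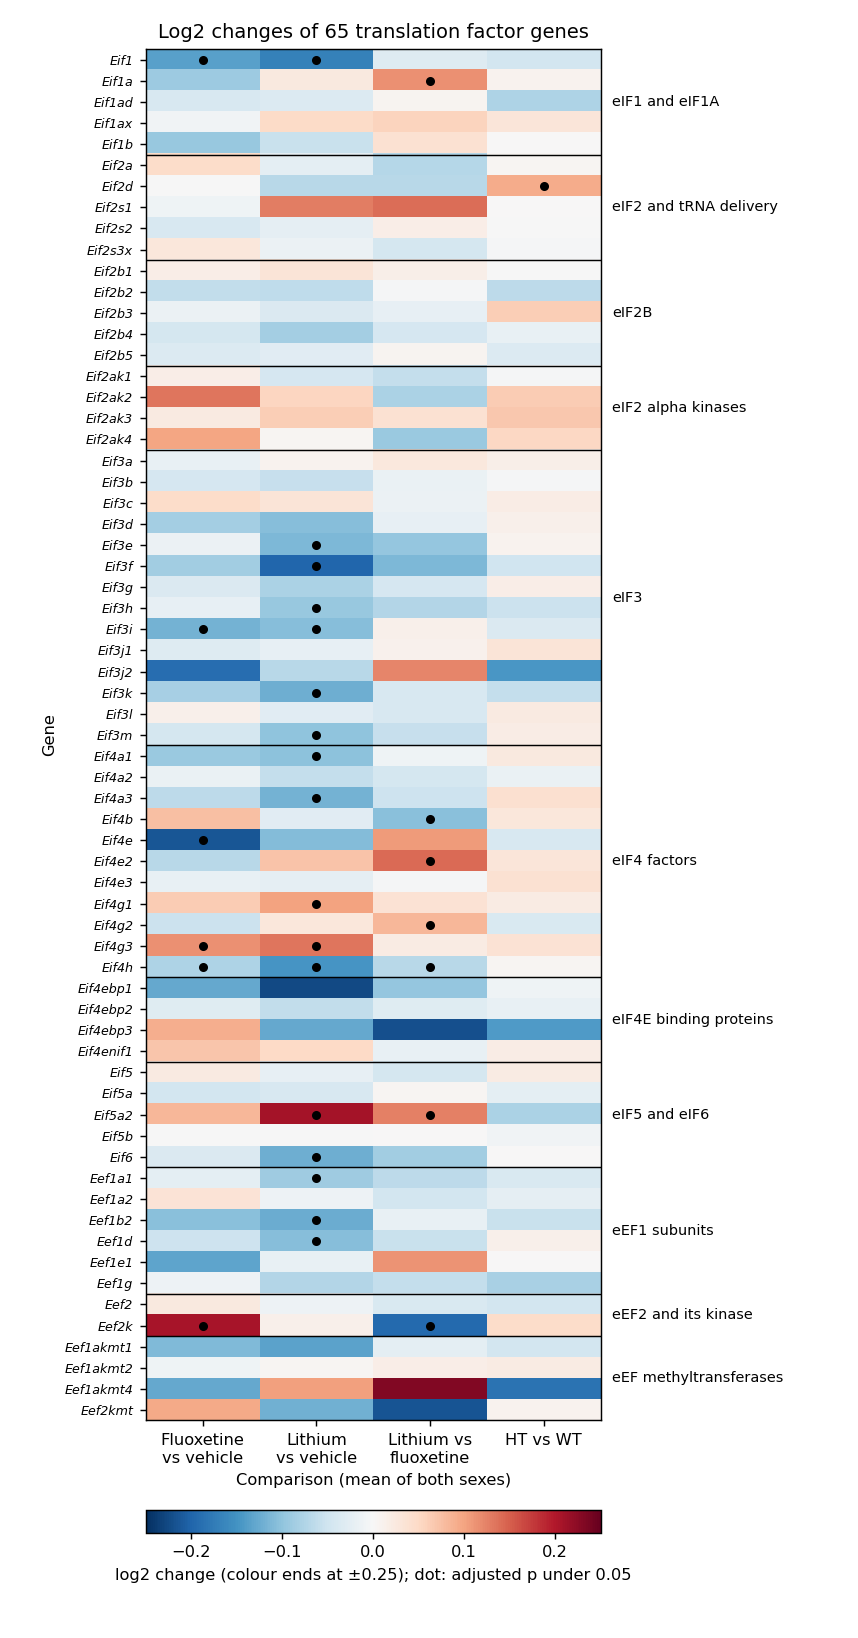
Log2 changes (colour) of the 65 members, in rows grouped by role, in 4 comparisons, each the mean over both sexes. Dots mark adjusted p under 0.05, and the lithium against vehicle column holds 17 of them, 14 of these on negative values.

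Eif4h, whose product stimulates the eIF4A helicase (ENSMUSG00000040731, chr5:134619721-134639490), had the smallest p of the members under lithium. Its lowest, median and highest values were 8971, 9858 and 10347 in HT lithium, and 10591, 10828 and 11503 in HT vehicle. In WT they were 9242, 9851 and 10192 under lithium, and 9967, 10730 and 11951 under vehicle. All 10 HT lithium libraries lay below all HT vehicle libraries, whereas the WT arms overlapped. The log2 change was -0.15 ± 0.02 over both genotypes (± after a log2 change is its standard error; adjusted p = 2.1e-06), with -0.15 ± 0.03 in HT and -0.14 ± 0.03 in WT. With the length term it was -0.10 (adjusted p = 0.0086), and the call held without any 1 of the 57 libraries.

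Eif5a2, the less common of the genes for eIF5A (ENSMUSG00000050192, chr3:28781276-28798846), rose by 0.21 ± 0.04 under lithium (adjusted p = 0.000125). Values were 1208, 1501 and 1680 (lowest, median, highest) in HT lithium, against 1154, 1389 and 1527 in HT vehicle. They were 1515, 1651 and 1752 in WT lithium, against 1196, 1349 and 1479 in WT vehicle. The WT arms did not overlap and the HT arms did. The change was 0.28 ± 0.05 in WT (adjusted p = 0.00124), and with the length term the value over both genotypes was 0.12 (adjusted p = 0.134).

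Among the eIF4G scaffolds, Eif4g3 ran from 9588 to 12270 with a median of 10978 in lithium libraries (n = 19), against 8383 to 11269 with a median of 9992 in vehicle libraries (n = 18). Its log2 change was 0.13 ± 0.03 (adjusted p = 0.0023). Eif4g1 had a median of 11185 under lithium, against 10488 under vehicle (0.10 ± 0.02, adjusted p = 0.00233). For both genes 17 of 19 lithium libraries lay above the vehicle median, and the ranges overlapped. Their values under the length term were 0.04 and 0.03 (adjusted p = 0.541 and 0.52).

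Of eIF3, the largest initiation factor, 6 subunits fell under lithium. Eif3f (ENSMUSG00000031029, chr7:108934417-108942951) had 2080, 2286 and 2683 (lowest, median, highest) in lithium libraries, against 2267, 2683 and 3284 in vehicle libraries, with all 19 lithium libraries below the vehicle median. Its log2 change was -0.20 ± 0.04 (adjusted p = 0.000204), -0.21 ± 0.05 in HT and -0.19 ± 0.05 in WT. The HT call was lost without HT lithium female 5 or HT vehicle female 2, and the WT call without WT lithium female 4 or WT vehicle male 2. Eif3k (-0.12), Eif3e (-0.11), Eif3i (-0.11), Eif3m (-0.10) and Eif3h (-0.09) also fell, with ranges that overlapped those of vehicle. Under the length term Eif3f had -0.10 (adjusted p = 0.196), and Eif3i and Eif3k were at 0.00. Eif3c, the subunit with the highest mean, did not pass, with medians of 5867 under lithium and 5800 under vehicle (0.03 ± 0.03). The call of Eif3e was lost without HT lithium male 5, WT lithium female 4, WT lithium male 3 or WT vehicle male 2, and that of Eif3m without HT vehicle male 4, WT lithium female 2, WT vehicle female 4 or WT vehicle male 2.

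Eif1, which keeps the scanning ribosome from starting at wrong codons (ENSMUSG00000035530, chr11:100319885-100322096), fell by 0.17 ± 0.04 (adjusted p = 0.000939). Lithium libraries had 5749, 6165 and 6897 (lowest, median, highest), against 5821, 6824 and 9786 in vehicle libraries. The ranges overlapped, the highest vehicle value being that of WT vehicle male 2, and 18 of 19 lithium libraries lay below the vehicle median. With the length term the value was -0.06 (adjusted p = 0.446). Of the 31-base words of Eif1 transcripts, 25.5% occur in other annotated genes, so that its reads may in part be shared.

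Among elongation factors, Eef1a1 had 50041, 52717 and 55861 (lowest, median, highest) in lithium libraries, against 51800, 55436 and 67892 in vehicle libraries, a change of -0.09 ± 0.02 (adjusted p = 0.00598). The eEF1B genes Eef1b2 (-0.12 ± 0.04) and Eef1d (-0.11 ± 0.04) also fell. Both lost their calls without WT vehicle male 2, as did Eif3e, Eif3m, Eif4a1, Eif4a3 and Eif6, and Eef1b2, Eef1d and Eif6 were lost without any of 12, 14 and 33 libraries. The call of Eif4a3 was also lost without HT vehicle female 2, WT lithium female 4 or WT lithium male 3. Eef1a2 and Eef2, which follow Eef1a1 in level per kb, did not pass, with -0.01 ± 0.04 and -0.01 ± 0.02. Eif4a1 (-0.10 ± 0.03), the helicase gene, Eif4a3 (-0.12 ± 0.04), of the exon junction complex, and Eif6 (-0.12 ± 0.04), which keeps ribosomal subunits apart, complete the 14. Of the 31-base words, 64% are shared with other genes for Eef1a1 and 67.5% for Eif4a1, and a pseudogene that resembles Eif4a1, Eif4a-ps4, was itself listed at a mean of 754, so these values are uncertain. The shared part was 51.4% for Eif3m, 44% for Eif4a3, 42% for Eif3e and 37.4% for Eif3h, whose reads may also be shared. In that order, the gene sharing the most words was listed at a mean of 0.447, 0.0457, 0.175 and 0.113. For Eef1a1 that gene was listed at 2.41. These levels come from the same counting of reads.

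**Figure D2:**
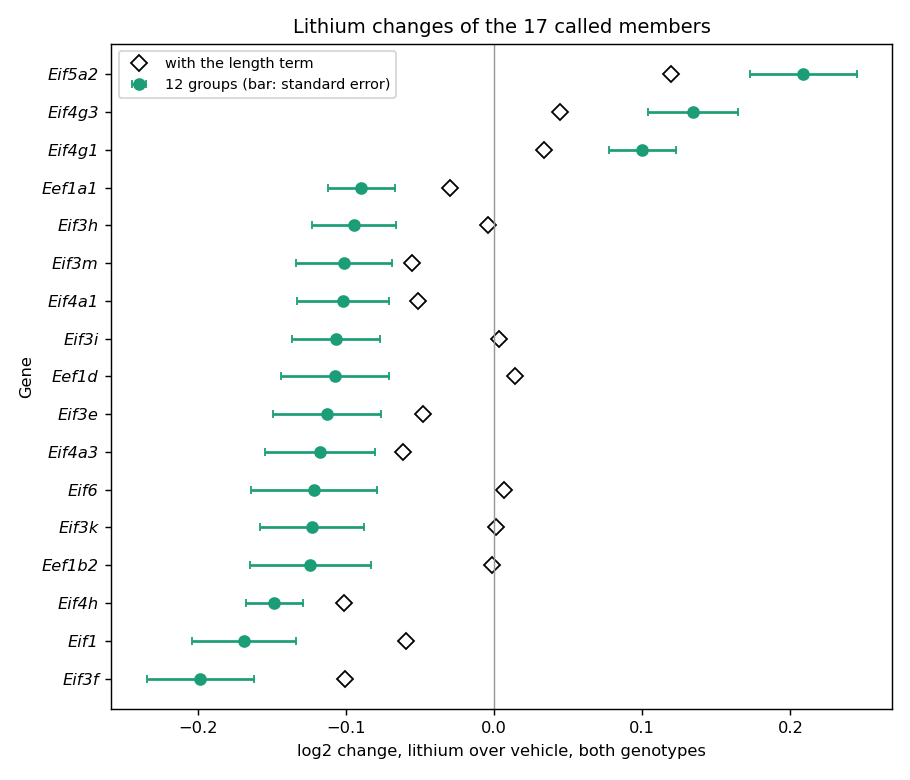
Log2 change of lithium over vehicle for the 17 called members, from the fit of 12 groups (filled circles, bars 1 standard error) and with the length term (open diamonds). The diamond lies nearer to 0 than the circle for every gene shown, and Eif4h, at -0.10, is the called one among them.

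Fluoxetine against vehicle, over both genotypes, changed 6 members of 65, with 4.75% of all genes called. Eef2k and Eif4g3 rose (1.68% of all genes rose), and Eif4e, Eif1, Eif3i and Eif4h fell (3.07% of all genes fell). The members' median log2 difference was -0.02, against 0.01 over all genes tested. The vehicle libraries are the same as in the lithium comparison. With either length term 1 of the 6, Eef2k, remained called, and without WT vehicle female 1 10 members were called.

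Eef2k, the kinase gene (ENSMUSG00000035064, chr7:120842831-120907450), had 1184, 1414 and 2192 (lowest, median, highest) in HT fluoxetine, against 1078, 1169 and 1453 in HT vehicle. In WT it had 1223, 1363 and 1498 under fluoxetine, against 1113, 1198 and 1374 under vehicle. All 20 fluoxetine libraries lay above the vehicle median, though the ranges overlapped. The log2 change was 0.21 ± 0.04 (adjusted p = 0.00303), and 0.20 with the length term (adjusted p = 0.043). The value of 2192 belonged to HT fluoxetine male 3, and the call held without any 1 library. Eef2, the substrate, did not pass (0.03 ± 0.02).

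Eif4e, the cap-binding protein gene (ENSMUSG00000028156, chr3:138526179-138559696), fell by 0.21 ± 0.05 (adjusted p = 0.00536). Its values were 2160, 2827 and 3098 (lowest, median, highest) in HT fluoxetine, against 2791, 3300 and 4133 in HT vehicle. They were 2600, 2930 and 3243 in WT fluoxetine, against 2864, 3250 and 3631 in WT vehicle. The arms overlapped in both genotypes, and all 20 fluoxetine libraries lay below the vehicle median. With the length term the value was -0.19 (adjusted p = 0.0935). Eif4ebp2, the most abundant of the eIF4E-binding protein genes, did not pass (-0.03 ± 0.03).

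The smaller fluoxetine changes concerned genes that also passed under lithium. Eif4g3 had 8762, 10583 and 12290 (lowest, median, highest) in fluoxetine libraries, against 8383, 9992 and 11269 in vehicle libraries (0.11 ± 0.03, adjusted p = 0.0189). Eif1 changed by -0.14 ± 0.03, Eif3i by -0.12 ± 0.03 and Eif4h by -0.08 ± 0.02. For Eif1 all 20 fluoxetine libraries lay below the vehicle median, and for Eif4h 19 of 20 did. With the length term these 4 genes had adjusted p-values of 0.318 to 0.556.

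**Figure D3:**
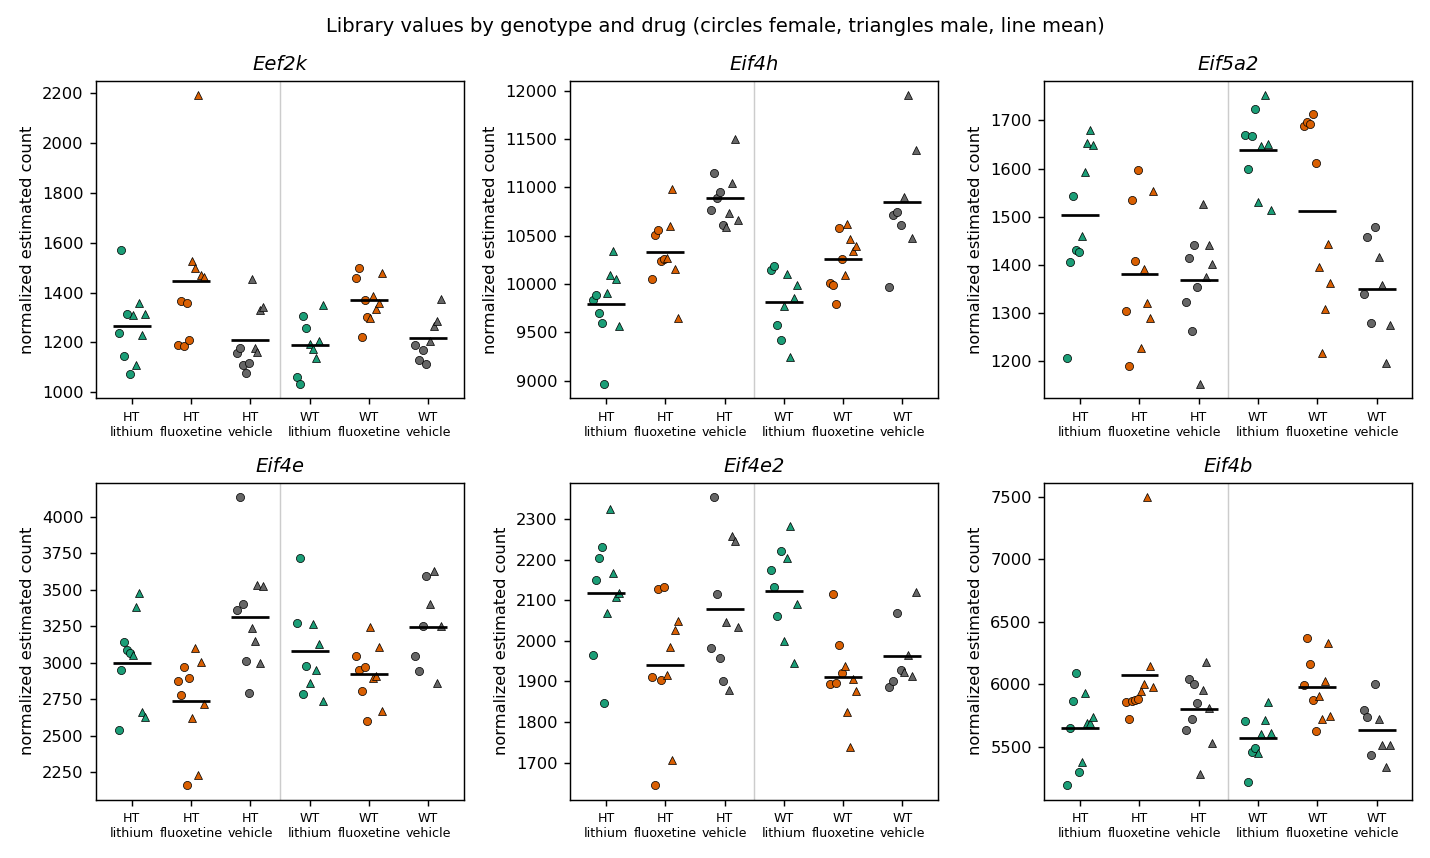
Normalized counts of 6 members in each library (circles female, triangles male) by arm, with the arm mean as a line. HT lithium lies below HT vehicle without overlap for Eif4h, and the high Eef2k and Eif4b points in HT fluoxetine, at 2192 and 7498, belong to 1 male library. The vertical axes do not start at 0.

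Lithium against fluoxetine, a difference in which no vehicle library enters the means, changed 7 members of 65, with 4.66% of all genes called. Eif4e2, Eif5a2, Eif1a and Eif4g2 were higher under lithium, as were 2.41% of all genes, and Eef2k, Eif4b and Eif4h were lower, as were 2.26% of all genes. All 7 remained called with either length term, which added Eif2ak4 as lower under lithium. The mean length trends of the drug arms lay between 0.0243 and 0.0746. Without WT vehicle male 2, a library of neither drug, 11 members were called.

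Eef2k had 1034, 1230 and 1572 (lowest, median, highest) in lithium libraries, against 1184, 1368 and 2192 in fluoxetine libraries. The ranges overlapped, with 18 of 19 lithium libraries below the fluoxetine median. The log2 change was -0.19 ± 0.04 (adjusted p = 0.00497), while lithium against vehicle gave 0.01 ± 0.04.

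Eif4e2 encodes a cap-binding homologue of eIF4E that is known to repress initiation (ENSMUSG00000026254, chr1:87213914-87240488). It had 1847, 2133 and 2325 (lowest, median, highest) in lithium libraries, against 1644, 1914 and 2132 in fluoxetine libraries, with 18 of 19 lithium libraries above the fluoxetine median. The log2 change was 0.14 ± 0.03 (adjusted p = 0.00521). In vehicle libraries, which lay between the drugs, the median was 1974, and Eif4e2 passed against vehicle under neither drug.

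Eif4b, a cofactor of eIF4A (ENSMUSG00000058655, chr15:102073773-102097173), had 5191, 5648 and 6088 (lowest, median, highest) under lithium, against 5629, 5923 and 7498 under fluoxetine. The change was -0.10 ± 0.02 (adjusted p = 0.00821), it held without any 1 library, and it was not called with the striatal and olfactory marker sums as terms. Eif1a, an autosomal eIF1A gene, had 1079 to 1303 under lithium, against 975 to 1285 under fluoxetine, with all 19 lithium libraries above the fluoxetine median (0.11 ± 0.03, adjusted p = 0.0254). Eif4g2, whose product lacks the eIF4E-binding part of eIF4G, had medians of 19061 under lithium and 18128 under fluoxetine (0.08 ± 0.02, adjusted p = 0.0279). Eif1a and Eif4g2 lost their calls without WT lithium female 2. Eif5a2 was higher by 0.13 ± 0.04 (adjusted p = 0.0274), a call lost without HT fluoxetine female 2 or HT lithium female 3, and Eif4h lower by 0.07 ± 0.02 (log2 change -0.07, adjusted p = 0.0192), and for Eif4h lithium, fluoxetine and vehicle medians stood at 9851, 10265 and 10754.

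Within a genotype fewer members passed. In HT, lithium against vehicle changed 2, Eif4h and Eif3f, with 0.888% of all genes called, and fluoxetine against vehicle changed 1, Eif4e, with 0.33% called. In WT, lithium changed 8 (8.53% of all genes), with Eif5a2, Eif4g3, Eif1ax and Eif4g1 higher (5.45% of all genes) and Eif1, Eif3f, Eif4h and Eef1a1 lower (3.08% of all genes). Fluoxetine in WT changed 0 by limma (0.84% of all genes), with 16 members, and 15.2% of all genes, at an unadjusted p under 0.05, the smallest being those of Eif5a2 and Eif4g3. Eef2k had 0.24 under fluoxetine in HT (adjusted p = 0.052). In WT under lithium the calls of Eif1, Eif1ax and Eef1a1 were lost on omitting WT vehicle male 2 for Eif1, WT lithium female 4 for Eif1ax and any of 21 libraries for Eef1a1, and that of Eif4g1 without WT lithium female 3, WT lithium male 3, WT vehicle female 3 or WT vehicle male 2. The WT lithium count was 5 on omitting WT lithium female 4, 13 on omitting WT vehicle male 1 and 4 on omitting male 2 of that arm. It was 1 with the WT lithium and vehicle groups alone in the fit, and 0 with the length term. In HT the length term left 0 called members under lithium and 0 under fluoxetine, the trend of the longest transcript left 1 (Eif4h) and 1 (Eif4e), and the compared groups alone left 1 (Eif4h) and 0. Eif4e in HT lost its call without any of 11 libraries.

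Different counts in the genotypes do not show different effects. The difference of the lithium effect between HT and WT passed for 0 members by limma (0% of all genes called), and 2 members and 7.31% of all genes had an unadjusted p under 0.05. The difference of the fluoxetine effect also passed for 0 (0% of all genes), with 4 members and 7.71% of all genes at an unadjusted p under 0.05. For Eif4h the lithium effect in HT minus that in WT was -0.01, with a 95% interval of -0.09 to 0.07. For Eif5a2 it was -0.15 (-0.30 to -0.01), with an adjusted p of 0.671. Eif1ax had the smallest unadjusted p in both, with -0.23 ± 0.06 for lithium (adjusted p = 0.605) and -0.20 ± 0.06 for fluoxetine (adjusted p = 0.492). Over the 6 arms together, 15 members differed by an F test (14.1% of all genes called), and 8 with the length term.

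HT against WT gave few calls. Under vehicle, Eif1ax, the X-linked eIF1A gene (ENSMUSG00000067194, chrX:159372178-159389928), was higher in HT, the 1 member called with 0.762% of all genes. It had 4823, 5624 and 6290 (lowest, median, highest) in HT vehicle, against 4542, 4944 and 5440 in WT vehicle, and 9 of 10 HT libraries lay above the WT median. The log2 change was 0.17 ± 0.04 (adjusted p = 0.0372). It was not called without any of 11 libraries, nor with the striatal and olfactory marker sums as terms, the compared groups alone (adjusted p = 0.323) or the length trend of the longest transcript (adjusted p = 0.0562). The striatal sum ran from 4943 to 6256 in HT vehicle, against 4413 to 25784 in WT vehicle. For the olfactory bulb it ran from 619 to 4023 in HT vehicle, against 459 to 13600 in WT vehicle. Summed markers of excitatory neurons ran from 73218 to 87644 in HT vehicle, against 58328 to 78575 in WT vehicle. Those of interneurons ran from 17523 to 21782 in HT vehicle, against 17931 to 33868 in WT vehicle. Those of oligodendrocytes ran from 82394 to 132593 in HT vehicle, against 70620 to 186947 in WT vehicle. The part of the excitatory neuron, interneuron and oligodendrocyte sums in the Eif1ax result was not tested. Under lithium its value was -0.05 ± 0.04 and under fluoxetine -0.03 ± 0.04. Eif5, the gene of the GTPase activator of eIF2, had the next smallest p under vehicle and did not pass.

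Under fluoxetine the called member was Eif3j2 (0.222% of all genes), a copy of the gene for the loosely bound eIF3j subunit. It had 225, 337 and 388 (lowest, median, highest) in HT fluoxetine, against 353, 418 and 436 in WT fluoxetine, a log2 change of -0.36 ± 0.09 (adjusted p = 0.0498). All 10 HT libraries lay below the WT median, the ranges overlapped, and the call was lost without any of 46 libraries. Of the 31-base words of Eif3j2, 94.9% occur in another gene, mainly Eif3j1, so that reads can be divided between the copies. Under lithium 0 members passed by limma (0.114% of all genes), with 4 members and 7.75% of all genes at an unadjusted p under 0.05.

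Over all treatments the 1 called member was Eif2d, which can deliver tRNA to the ribosome apart from eIF2 (3.74% of all genes called). It had 733, 836 and 1016 (lowest, median, highest) in HT (n = 30), against 666, 787 and 872 in WT (n = 27), and 25 of 30 HT libraries lay above the WT median. The log2 change was 0.09 ± 0.03 (adjusted p = 0.0423), and the call was lost without any of 24 libraries and with the marker sums as terms. Exons of Eif2d overlap those of Rassf5 on the other strand by 78 bases, and whether reads were counted by strand is not stated. The members' median log2 difference was 0.00, with 34 positive and 31 negative.

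The smallest adjusted p among the members in any comparison was that of sex in Eif2s3x, the X-linked gene of the gamma subunit of eIF2, which is known to escape X inactivation in the mouse (ENSMUSG00000035150, chrX:94188707-94212862). Its mean was 4791 ± 192 in females (SD, n = 28) and 3224 ± 201 in males (SD, n = 29). Females ran from 4277 to 5073 and males from 3017 to 4153, without overlap, the highest male being HT fluoxetine male 3. The log2 difference was 0.57 ± 0.02 (adjusted p = 1.02e-29), a ratio of 1.49 with a 95% interval of 1.45 to 1.53. It was the 1 member of 65 called between the sexes, with 0.108% of all genes called. Eif1ax, also X-linked, had a difference of 0.02 ± 0.02.

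The Y-linked copy Eif2s3y, which is no member, was listed at 331 to 1405 in males (mean 902 ± 317) and at most at 0.782 in females. It made up 21.9% of the male sum of both copies. That sum averaged 4126 ± 383 in males, against 4791 ± 192 in females, with males at 0.861 of the female mean. The copies resemble each other, so the division of reads between them is uncertain. Eif2s3x did not pass for either drug or for genotype, where its pooled log2 differences were -0.01 ± 0.03 for lithium, 0.03 ± 0.02 for fluoxetine and -0.00 ± 0.02 for HT. The sex differences of the drug and HT effects passed for 0 members by limma (0%, 0.006% and 0.588% of all genes for lithium, fluoxetine and HT), with 3, 3 and 11 members at an unadjusted p under 0.05, against 5.62%, 11.5% and 18.7% of all genes.

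**Figure D4:**
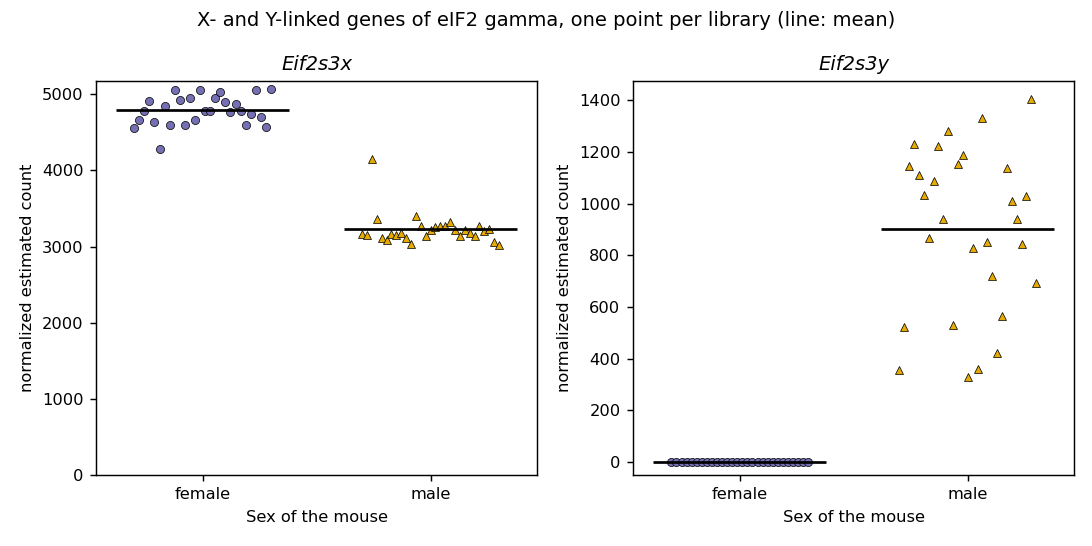
Normalized counts of Eif2s3x (left) and Eif2s3y (right) in each library, 28 female and 29 male, with the mean of each sex as a line. Eif2s3x is higher in every female than in every male library, and Eif2s3y is at or near 0 in females and 331 to 1405 in males.

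In all, 27 members were called in at least 1 of the 18 comparisons and 38 in none. Single comparisons called up to 14.1% of all genes. The share of all genes called in at least 1 is not given here, so these counts do not set the members apart. No subunit of eIF2B, the exchange factor of eIF2, passed in any comparison, nor did any of the 4 eIF2 alpha kinases, the 4 eIF4E-binding protein genes or the 4 methyltransferase genes. Eif2b5, the most abundant eIF2B gene, had medians of 1551 under lithium, 1542 under fluoxetine and 1579 under vehicle. Eif2ak1 had 2074, 2151 and 2116, and Eif4ebp2 had 2075, 2125 and 2222, in the same order of lithium, fluoxetine and vehicle. Eif4ebp1, with few counts, had a lithium value of -0.22 ± 0.08 (adjusted p = 0.0546). Eif2s1, which encodes eIF2 alpha, had 0.13 ± 0.06 under lithium (adjusted p = 0.131). The others not called were Eif1ad, Eif1b, Eif2a, Eif2s2, Eif3a, Eif3b, Eif3c, Eif3d, Eif3g, Eif3j1, Eif3l, Eif4a2, Eif4e3, Eif5, Eif5a, Eif5b, Eef1a2, Eef1e1, Eef1g and Eef2, with pooled drug differences shown in the plot of all members.

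Related genes of translation, from lists chosen beside the members, moved as follows. Of 9 factor genes with terminal oligopyrimidine mRNAs, all of them members, 6 fell under lithium (6.14% of all genes fell) and 0 under fluoxetine (3.07% of all genes fell), with a median log2 difference of -0.09 under lithium. With either length term 0 of the 9 were called under lithium. Of 15 genes of mTORC1 and MNK signalling, Ddit4, which encodes an mTORC1 inhibitor, and Rps6 fell under lithium against vehicle, which is 2 of 15 beside the 6.14% of all genes that fell. Ddit4 had 984, 1220 and 1733 (lowest, median, highest) in lithium libraries, 1183, 1450 and 2044 in fluoxetine libraries and 1354, 1659 and 2086 in vehicle libraries. Its log2 change was -0.40 ± 0.06 against vehicle (adjusted p = 4.56e-05) and -0.26 ± 0.06 against fluoxetine (adjusted p = 0.0112). Rps6, which encodes a ribosomal protein, had a median of 4036 in lithium libraries, against 4372 in vehicle libraries (-0.15 ± 0.03, adjusted p = 0.00229). Ddit4 with the length term remained called against vehicle (-0.47, adjusted p = 0.00349) and against fluoxetine (-0.27, adjusted p = 0.00747), and Rps6 did not (-0.03, adjusted p = 0.755). Either length term also added 1 higher call of the 15, Akt1s1 against vehicle and Rheb against fluoxetine.

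Of 22 tested genes of the integrated stress response, 2 rose and 2 fell under lithium against vehicle, beside 13.3% of all genes called in that comparison, and with either length term 0 of the 22 were called. Sesn2 (0.22) and Vldlr (0.11) rose and Ddit3 (-0.26) and Cebpb (-0.26) fell. With the length term Sesn2 stayed at 0.22, with an adjusted p of 0.109 against 0.00537 without it. Atf4, the transcription factor gene of this response, was higher under lithium than under fluoxetine, with medians of 2847 in lithium libraries, against 2575 in fluoxetine libraries (0.16 ± 0.04, adjusted p = 0.00916), as was Sesn2 (0.19 ± 0.05), and both remained called with either length term (4.66% of all genes called without one). Under fluoxetine Ddit3 fell (-0.20) and the other 21 did not pass, beside 3.07% of all genes that fell. Among 20 other translation factors Ddx3x rose under lithium (0.10) and under fluoxetine (0.13), and Pdcd4, whose product inhibits eIF4A, fell under lithium (-0.08). Of all genes, 7.16% rose and 6.14% fell under lithium, and 1.68% rose under fluoxetine. Of 19 tested cytosolic aminoacyl-tRNA synthetase genes, Iars rose under lithium (0.10), which is 1 of 19 beside the 7.16% of all genes that rose. With either length term the calls of Ddit3, Ddx3x, Pdcd4 and Iars against vehicle were lost. Of 8 hypusine and diphthamide enzymes and 9 mitochondrial translation factors 0 passed under either drug by limma, beside 13.3% of all genes under lithium and 4.75% under fluoxetine.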

How the data were processed

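The 57 libraries were made with a stranded mRNA kit, per the labels' protocols. The authors deposited 1 table of normalized estimated counts, a signal that need not be whole, for 51456 genes. The submitters' processing notes name GRCm38, DESeq2 1.19.11, Salmon 0.11.2 and R 3.6.0, with no annotation release and no strand setting. Totals were 30.4 to 33.2 M per library after the authors' scaling, so the sequencing depth is unknown.

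Genes with a mean of at least 10 (16659) were tested as log2(value + 1) in 1 limma 3.58.1 fit (R 4.3.3, trend and robust options) of 12 groups of genotype, drug and sex, with 4 or 5 libraries each. Adding 1 understates changes of low genes. Each of 18 comparisons was adjusted by Benjamini-Hochberg over all genes tested, with a threshold of 0.05. The script was tested on simulated data, in which genes were drawn independently, without a length trend or an outlying library. That test does not bear on how such features affect the calls. In the text, ± is the standard error after a log2 change and the SD after a mean. Coordinates and transcript lengths are from GENCODE vM21 (GRCm38), and promoters from RefSeq (GRCm38.p6).

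The members and lists were chosen with earlier results of these data known. Named were members called in any comparison, those with the 2 smallest p-values in the drug comparisons within a genotype and in the genotype comparison under vehicle, and the member with the highest mean of each role. Alternatives were another pseudocount, a lower minimum, a median-ratio rescaling, fits of the compared groups alone, a replicate block, a length term and leaving out each library. Terms for neighbouring tissue, a longest-transcript length term and leaving out 3 libraries were chosen after seeing the data.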

Additional observations from a re-analysis of the deposited data

Results flagged for a closer look

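In each arm, the highest or lowest library of the 35 named members was set against the others by Dixon's ratio at the 95% level. It stood far from them in 32 of 210 member and arm pairs, where chance alone gives about 1 in 20 for independent values. Members measured in the same library need not be independent, and the share over all genes is not given. The count therefore does not set the members apart. WT vehicle male 2 was the highest of its arm in 14 of the 32 pairs. Its values were 67892 for Eef1a1, 3675 for Eef1b2, 2267 for Eef1d and 705 for Eef1akmt1. Among initiation factors it had 9786 for Eif1, 1865 for Eif2b5, 2230 for Eif3e, 3974 for Eif3h, 2764 for Eif3i, 2573 for Eif3k and 1759 for Eif3m. It also had 1646 for Eif4a3, 10442 for Eif5a and 1263 for Eif6. This library had the lowest length trend, -0.33, and its part in these values was not tested.

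HT fluoxetine male 3 stood apart in 7 pairs. It was lowest for Eef2 (26888) and Eif4g2 (14445), and highest for Eef2k (2192), Eif3e (2133), Eif3m (1612), Eif4b (7498) and Eif6 (1156). HT lithium female 1 was highest for Eef1d (1904) and lowest for Eif1ax (4434), and HT lithium female 5 was lowest for Eif6 (668). WT lithium male 5 was highest for Eif4a3 (1418) and Eif6 (1059.8), and WT fluoxetine female 3 was highest for Eif4a3 (1416). Of the HT vehicle libraries, male 3 was highest for Eif2ak1 (2381), female 4 for Eif4a1 (9142) and female 2 for Eif4a3 (1659), while male 1 was lowest for Eif3c (5008). WT vehicle male 4 was lowest for Eif4g2 (16847).

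Signal also appeared in matching symbols outside the members. Eif2s3y averaged 902 in the males, and the pseudogene Eif4a-ps4 averaged 754 over all libraries, with a range of 0 to 1326.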

How the results depend on the processing

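With the length term, lithium against vehicle had 1 called member over both genotypes, 0 in HT and 0 in WT, fluoxetine against vehicle had 1 over both genotypes and 0 in HT, HT against WT over all treatments had 2, and the 6 arms 8. From the longest transcript these counts were 1, 1, 0, 1, 1, 2 and 8 in the same order, and HT against WT under vehicle had 0. With the length term 4 lithium values turned to the positive side: Eef1d 0.0140, Eif6 0.00675, Eif3i 0.00362 and Eif3k 0.00154. The cause was not tested. Counts in this section are of members alone, without the matching counts of all genes, which can also change with the setting.

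With the compared groups alone in the fit, lithium against vehicle had 1 in HT and 1 in WT, lithium against fluoxetine 12, and fluoxetine in HT, HT against WT under vehicle and under fluoxetine 0. With a minimum mean of 1, fluoxetine in HT, HT against WT under fluoxetine and over all treatments had 0. Without the 3 least alike libraries, fluoxetine in HT had 4, lithium in WT 5, lithium against fluoxetine 12, the sex difference of the HT effect 2, and HT against WT under vehicle, under fluoxetine and over all treatments 0. With marker terms, fluoxetine in HT had 2 and HT against WT under vehicle and over all treatments 0.

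The replicate numbers did not pair the libraries: deviations of libraries with the same number had a median correlation of -0.0078, and 10 of 57 were nearest their own number. With the replicate block, HT against WT under fluoxetine and over all treatments had 0, and lithium against vehicle had 16 over both genotypes.

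Leaving out each library in turn gave 10 to 19 for lithium against vehicle over both genotypes, 1 to 3 in HT and 4 to 13 in WT. Fluoxetine against vehicle gave 6 to 10, 0 to 3 in HT and 0 to 1 in WT, and lithium against fluoxetine 6 to 11. HT against WT gave 0 to 1 under vehicle, under fluoxetine and over all treatments, the sex difference of the HT effect 0 to 3, the arms 13 to 20, and female against male 1 to 1. The depth per library is unknown, which leaves the counting error of low members such as Eif4ebp3 unknown.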
